A study of Mus musculus with 4 samples.

Results

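Expression of 9 integrin subunit genes and of *Dst*, which encodes the cytoskeletal linker dystonin, was described in whole lenses of mice carrying an allele for a hyperactive PDGFRβ. The 10 genes were the rows of the deposited table named *Itga2*, *Itga3*, *Itga5*, *Itga6*, *Itgav*, *Itgb1*, *Itgb4*, *Itgb5*, *Itgb8* or *Dst*, of 56748 genes in all. They were chosen by name, but with FPKM and mutant-to-control differences of these same libraries already known, so the differences below are descriptions, with no p given for any of the 10 genes. Of the 10 genes, 9 had a mean of at least 0.1 FPKM and entered the fit over 15997 genes, while *Itgb4* was under this filter. FPKM values are fragments scaled to gene length and to a factor of each library.

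Polyadenylated RNA was sequenced from lenses of 10 to 12 day old mice, in 2 mutant and 2 control libraries, to look for early transcriptional differences that precede cataract. The mutant genotype was Fsp1-cre;Pdgfrb+/D849V. In it, cre under the *Fsp1* (*S100a4*) promoter is designed to switch on a knock-in allele of the receptor at its own locus. Neither allele is specific to the lens. The paper describes robust reporter signal for cre in the lens epithelium at ages older than these mice. It assumes, without a direct check, that the mutant receptor is expressed once cre is on. Expression of the mutant receptor in these lenses was not tested. Controls carried the label Fsp1-cre;Pdgfrb+/+, although by the study's methods their pools also held mice without cre that were Pdgfrb+/+ or Pdgfrb+/D849V. Mice were bred into the FVB/N strain, some with a cre-dependent tdTomato reporter, and each library pooled the lenses of several mice, so the spread between 2 libraries is a spread between pools.

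Integrins are receptors made of an α and a β subunit that bind extracellular matrix outside the cell and, through the short tail of the β subunit, talin and kindlin and thereby actin inside it. The lens epithelium and the ends of the fibre cells rest on the lens capsule, a thick basement membrane of laminin and type IV collagen, and the laminin receptors α6β1 and α3β1 are known there. Dystonin belongs to the plakins, large linkers of the cytoskeleton, and one of its isoforms joins the α6β4 integrin of hemidesmosomes to keratin filaments.

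The ends of the β subunit coding sequences are shown because they hold the tail that links the receptor to the cell. Each line gives the last 50 codons, 5′ to 3′ on the coding strand, from the principal transcript of GENCODE M21 on GRCm38. Capitals mark in-frame codons of the asparagine-proline-any-tyrosine motif (AAC or AAT, then CCN, any codon, then TAC or TAT).
Itgb1: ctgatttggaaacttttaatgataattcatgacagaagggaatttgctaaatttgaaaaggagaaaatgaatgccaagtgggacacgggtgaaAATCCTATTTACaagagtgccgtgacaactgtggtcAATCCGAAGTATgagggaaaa
Itgb5: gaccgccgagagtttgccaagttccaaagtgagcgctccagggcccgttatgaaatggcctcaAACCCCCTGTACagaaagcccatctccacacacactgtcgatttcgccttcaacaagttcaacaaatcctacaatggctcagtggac
Itgb8: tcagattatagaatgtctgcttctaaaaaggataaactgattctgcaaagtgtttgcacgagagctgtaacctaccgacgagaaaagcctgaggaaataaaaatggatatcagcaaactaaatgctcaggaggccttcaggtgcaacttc
Itgb4: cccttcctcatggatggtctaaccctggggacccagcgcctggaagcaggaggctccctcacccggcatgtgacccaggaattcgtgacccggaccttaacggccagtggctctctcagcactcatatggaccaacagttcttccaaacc
The windows lie at chr8:128726100-128732085 on the plus strand for *Itgb1*, chr16:33947825-33948749 on the plus strand for *Itgb5*, chr12:119163120-119163366 on the minus strand for *Itgb8* and chr11:116007853-116008097 on the plus strand for *Itgb4*, and each spans the last 2 coding exons. *Itgb1* held 2 such motifs, *Itgb5* held 1, and the windows of *Itgb8* and *Itgb4* held 0. Sites without the proline codon were not searched for, so these counts do not show how many talin or kindlin binding sites a tail has. Of 21660 principal coding sequences, 85 (0.392%) held the motif in their last 50 codons. The tail of the *Itgb4* product is far longer than this window, and *Itgb8* has a divergent tail.

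The 5 α subunits are shown by the stretch of 33 bases that carries their shared membrane-proximal motif, with its 5 codons in capitals (GGN, TTC or TTT, TTC or TTT, AAA or AAG, then CGN, AGA or AGG).
Itga6: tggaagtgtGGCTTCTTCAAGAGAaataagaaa
Itga3: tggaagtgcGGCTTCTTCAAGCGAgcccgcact
Itgav: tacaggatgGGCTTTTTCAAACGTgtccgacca
Itga2: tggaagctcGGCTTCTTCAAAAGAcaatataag
Itga5: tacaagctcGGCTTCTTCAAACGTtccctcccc
These stretches, each spread over 2 exons, lie at chr2:71849501-71853560 on the plus strand for *Itga6*, chr11:95046564-95046926 on the minus strand for *Itga3*, chr2:83802997-83803266 on the plus strand for *Itgav*, chr13:114836539-114837098 on the minus strand for *Itga2* and chr15:103345326-103345957 on the minus strand for *Itga5* of GRCm38. Only 13 of the 21660 coding sequences (0.06%) held this motif in their last 60 codons.

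The libraries held 18561682 to 18878768 reads recovered from the FPKM values, of which crystallin genes took 58.6 to 62.9%. All 6 lens epithelium markers and 8 of 9 lens fibre markers passed the filter, and the fibre gene *Lim2* was listed at 0 in every library. *Xist* and all 6 retina markers were highest in mutant replicate 2 and control replicate 1, which therefore stand apart from the other pair across the groups; retina markers summed to 0.147 and 2.23 FPKM in mutant lenses and to 1.02 and 0.108 FPKM in control lenses. *Pdgfrb* itself measured 2.36 and 2.16 FPKM in mutant and 2.25 and 1.79 FPKM in control lenses, and since the altered allele sits at the endogenous locus this level does not check the genotype.

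The β subunits *Itgb5* and *Itgb1* had the highest FPKM, followed by *Itga6*, and the low end was held by *Itga5*, *Itgb8* and *Itgb4*. On the FPKM scale, which divides by the length of the gene model, mean levels over the 4 libraries were 43.9 for *Itgb5*, 35.0 for *Itgb1*, 8.60 for *Itga6*, 4.50 for *Itga3*, 4.12 for *Itgav*, 3.96 for *Dst*, 1.17 for *Itga2*, 0.517 for *Itga5*, 0.224 for *Itgb8* and 0.0461 for *Itgb4*. Neighbours in this order had separate ranges over the libraries, except *Itga3* with *Itgav* and *Itgav* with *Dst*, whose ranges overlapped. The plot of levels by library shows these steps. Gene models exceed the longest coding transcript of GENCODE M21 by unequal amounts. They were 9142 against 4310 bases for *Itga6*, 10744 against 7054 for *Itgav* and 41619 against 23279 for *Dst*. For *Itgb5* and *Itgb1* they were 3553 against 3282 and 4081 against 3815 bases. FPKM can therefore understate *Itga6*, *Itgav* and *Dst* relative to *Itgb5* and *Itgb1*.

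**Figure D1:**
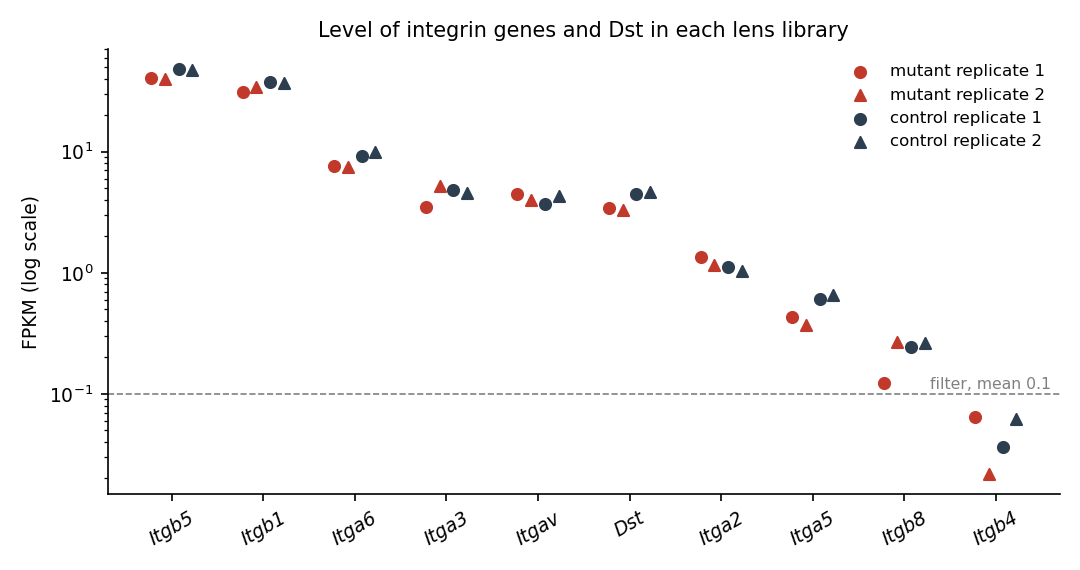
FPKM on a log axis of the 10 genes, ordered by mean, with 1 point for each of the 4 libraries (red, mutant; dark, control; circles, replicate 1; triangles, replicate 2) and a dashed line at the filter of 0.1. *Itgb5* lies between 39.8 and 47.8 FPKM and *Itgb4* between 0.0218 and 0.0640 FPKM, and both red points lie below both dark points for *Itgb5*, *Itgb1*, *Itga6*, *Dst* and *Itga5*.

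By FPKM, lenses contained mainly transcripts of 2 β subunits and 3 α subunits, under the limit on gene length given above. *Itgb5* and *Itgb1* together made up 99.6% of the FPKM summed over all 9 β subunit genes in every library, and *Itga6*, *Itgav* and *Itga3* made up 85.5 to 87.0% of that summed over all 18 α subunit genes. *Itga6* alone took 38.8 to 45.9% of the α sum and *Itgb5* 53.4 to 56.6% of the β sum. The β sum was 72.2 and 74.5 FPKM in mutant and 85.7 and 84.6 FPKM in control lenses, and the α sum 18.3 and 19.2 FPKM in mutant and 20.6 and 21.7 FPKM in control lenses. Both sums were lower in both mutant libraries. This mostly restates the contrast of the chosen genes, which was known when they were chosen, and nothing is read from it. Over all genes tested, 18.3% had both mutant libraries below both controls. On the FPKM scale, the β sum was 3.88 to 4.16 times the α sum.

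**Figure D2:**
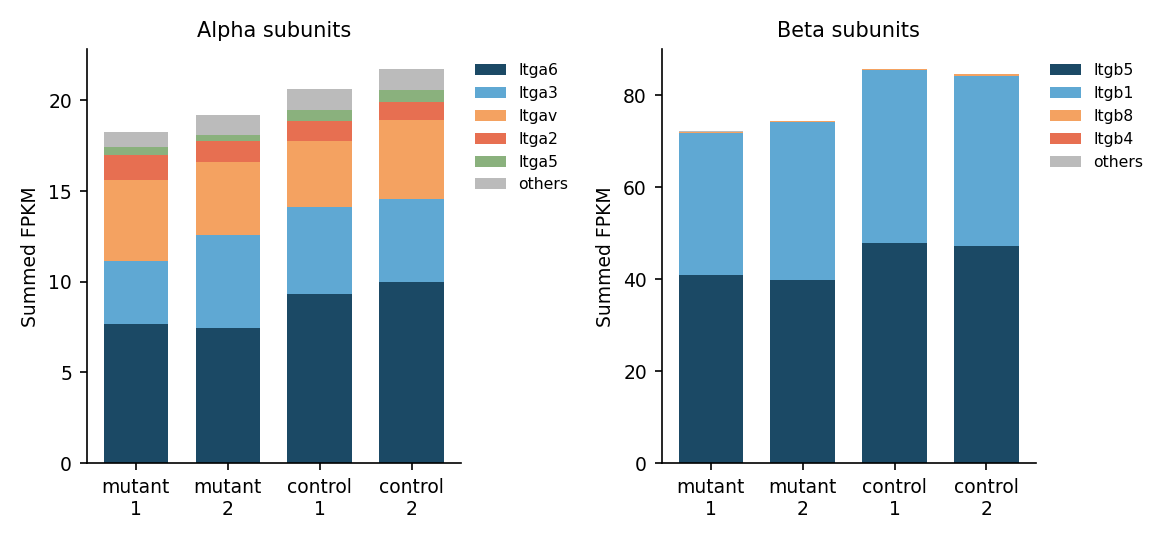
FPKM summed over the α (left) and the β (right) subunit genes in each library, with bars from 0 split by gene and the genes outside the 10 described in grey. *Itgb5* and *Itgb1* fill nearly the whole β bar. Both mutant bars are shorter than both control bars in each panel, which mostly restates the contrast of the chosen genes.

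*Itgb5* (ENSMUSG00000022817, chr16:33650035-33769708, mm39) encodes β5, which pairs with αv to bind vitronectin. It measured 40.9 and 39.8 FPKM in the mutant libraries and 47.8 and 47.2 FPKM in the controls, from 2590 to 3303 reads a library. Both mutant libraries were below both controls and the replicates of each group lay close together. The log2 fold change of mutant over control, on log2(FPKM + 0.1), was -0.24 ± 0.08 (SE, n = 2 libraries a group), and the mutant mean was 84.9% of the control mean. *Itgav*, which encodes its only known partner αv, had a lower FPKM on a longer gene model (10744 against 3553 bases). The ratio of *Itgb5* to *Itgav* was 9.14 and 10.0 in mutant and 13.0 and 10.9 in control lenses.

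*Itgb1* (ENSMUSG00000025809, chr8:129412135-129459681) encodes β1, the shared partner of α2, α3, α5 and α6. Its levels were 31.0 and 34.4 FPKM in mutant and 37.6 and 37.1 FPKM in control lenses. The groups did not overlap, but the mutant libraries were farther apart than counting alone gives, with a log2 ratio of -0.15 between them against a counting SD of 0.04. The log2 fold change was -0.19 ± 0.09 (SE) and lay between -0.27 and -0.12 when each library was left out in turn.

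The remaining β subunits were scarce. *Itgb8* (ENSMUSG00000025321, chr12:119121757-119202537), whose product pairs with αv and activates latent TGFβ, measured 0.122 and 0.268 FPKM in mutant and 0.242 and 0.265 FPKM in control lenses. Mutant replicate 1, with 24 reads against 52 to 58 in the other libraries, was the low one and the groups overlapped. Its log2 fold change of -0.31 ± 0.42 (SE) became 0.06 without mutant replicate 1, and it was -0.07 with a pseudocount of 1.

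*Itgb4* (ENSMUSG00000020758, chr11:115865535-115899238), the hemidesmosomal partner of α6, was covered by 8 and 3 reads in mutant lenses, against 5 and 8 reads in control lenses. Summed per group, this was 11 against 13 reads, and the ratio of mutant to control was 0.857 with an exact 95% interval of 0.348 to 2.07, which covers counting error only. A difference was not detectable at this depth.

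Among the α subunits, *Itga6* (ENSMUSG00000027111, chr2:71575960-71688760), a laminin receptor subunit, was lower in mutant lenses, at 7.67 and 7.44 FPKM against 9.30 and 9.97 FPKM. The groups did not overlap, and the mutant libraries were closer to each other than to either control. The log2 fold change was -0.35 ± 0.10 (SE), from -0.40 to -0.30 with each library left out, and the mutant mean was 78.4% of the control mean.

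*Itga3* (ENSMUSG00000001507, chr11:94935300-94967627), the other laminin receptor subunit, measured 3.48 and 5.16 FPKM in mutant and 4.79 and 4.58 FPKM in control lenses. The controls lay between the mutant libraries, whose log2 ratio of -0.57 exceeded the counting SD of 0.10. The log2 fold change of -0.14 ± 0.20 (SE) turned to 0.14 without mutant replicate 1. The ratio of *Itga6* to *Itga3* was 2.21 and 1.44 in mutant and 1.94 and 2.18 in control lenses and so differed between the groups by less than between the mutant libraries.

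*Itgav* (ENSMUSG00000027087, chr2:83554741-83637260), the αv subunit of receptors for vitronectin and latent TGFβ, measured 4.47 and 3.98 FPKM in mutant and 3.67 and 4.35 FPKM in control lenses. The groups overlapped. Its log2 fold change was 0.08 ± 0.14 (SE), and without control replicate 1 it was -0.04.

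*Itga2* (ENSMUSG00000015533, chr13:114969617-115068636), a collagen receptor subunit, was the one gene of the 10 with both mutant libraries above both controls, at 1.35 and 1.16 FPKM against 1.12 and 1.03 FPKM. The gap between mutant replicate 2 and control replicate 1 was small. With 136 to 172 reads a library, its log2 fold change was 0.20 ± 0.16 (SE), while counting alone gives a standard error of 0.12, and with each library left out it lay between 0.10 and 0.30.

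*Itga5* (ENSMUSG00000000555, chr15:103252713-103275190), the fibronectin receptor subunit, measured 0.432 and 0.373 FPKM in mutant and 0.605 and 0.660 FPKM in control lenses. The groups did not overlap, and the mutant mean was 63.7% of the control mean. This rests on 38 and 36 reads against 58 and 60 reads. The log2 fold change was -0.54 ± 0.22 (SE), with a counting standard error of 0.21, and it was -0.22 with a pseudocount of 1 and -0.63 to -0.46 with each library left out.

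*Dst* (ENSMUSG00000026131, chr1:33947306-34347742) was lower in mutant lenses, at 3.43 and 3.33 FPKM against 4.48 and 4.61 FPKM. Mutant lenses gave 2546 and 2714 reads, and control lenses 3625 and 3534 reads, spread over a gene model of 41619 bases, so its reads outnumber those of *Itga6* at a lower FPKM. The replicates of each group differed by no more than about their counting error, with log2 ratios of 0.04 and -0.04 against counting SDs of 0.04 and 0.03. The log2 fold change was -0.42 ± 0.11 (SE), from -0.44 to -0.39 with each library left out, and the mutant mean was 74.4% of the control mean. The ratio of *Itga6* to *Dst* was 2.24 and 2.23 in mutant and 2.08 and 2.16 in control lenses. The annotation has 7 genes that overlap the gene, with 5 to 13 reads in all per library.

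The per-gene value does not tell *Dst* isoforms apart. GENCODE M21 lists 8 coding transcripts of 2643 to 23279 bases for it, and separate forms are known in neurons, muscle and epithelium. RefSeq (GRCm38.p6) places starts of *Dst* in 2 windows 148.7 kb apart, which are shown because any start feeds the same row. Each line runs from 250 bases before to 50 bases after the start, on the plus strand, with GC boxes (GGGCGG, searched on both strands) in capitals.
Dst upstream window: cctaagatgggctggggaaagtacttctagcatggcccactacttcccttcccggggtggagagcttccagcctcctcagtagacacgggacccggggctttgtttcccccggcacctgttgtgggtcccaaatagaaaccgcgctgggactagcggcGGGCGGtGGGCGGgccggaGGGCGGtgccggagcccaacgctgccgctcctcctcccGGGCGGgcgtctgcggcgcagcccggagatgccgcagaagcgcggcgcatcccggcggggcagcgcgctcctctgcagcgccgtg
Dst downstream window: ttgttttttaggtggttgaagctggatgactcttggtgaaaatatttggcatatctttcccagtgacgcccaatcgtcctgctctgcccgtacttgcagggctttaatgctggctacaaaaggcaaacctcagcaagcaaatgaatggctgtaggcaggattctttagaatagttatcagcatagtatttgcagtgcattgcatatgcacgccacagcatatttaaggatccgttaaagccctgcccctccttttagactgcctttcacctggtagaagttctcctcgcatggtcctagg
The upstream window (chr1:34011345-34011644) has a GC content of 70.3%, 31 CpG dinucleotides and 4 GC boxes, and the downstream window (chr1:34160010-34160309) has 46.0%, 6 and 0. RefSeq windows were found for 8 of the 10 genes, 10 windows in all, and 8 of these held a GC box and 0 held TATAAA on either strand. Over 32851 promoter windows of this length, 35.7% held the GC box and 13.6% held TATAAA.

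Among the 9 genes in the fit, 7 had a lower and 2 a higher fitted level in mutants. The median of their log2 fold changes was -0.24, against 0.00409 over all genes tested. Both mutant libraries were below both controls for 5 genes (*Itgb5*, *Itgb1*, *Itga6*, *Itga5* and *Dst*) and above them for 1 (*Itga2*), where the shares over all genes tested were 18.3% and 18.2%. At an adjusted p under 0.05 by limma, 0 of the 9 were called, against 6 of all genes (0.0375%). At an unadjusted p under 0.05, 3 were lower and 0 higher, against 2.92% and 3.39% of all genes. By voom on recovered reads, 0 of the 9 were called, against 14 of all genes (0.0875%), and 3 had an unadjusted p under 0.05, against 1189 of all genes (7.43%). These counts use the contrast known when the genes were chosen, and nothing is read from them.

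**Figure D3:**
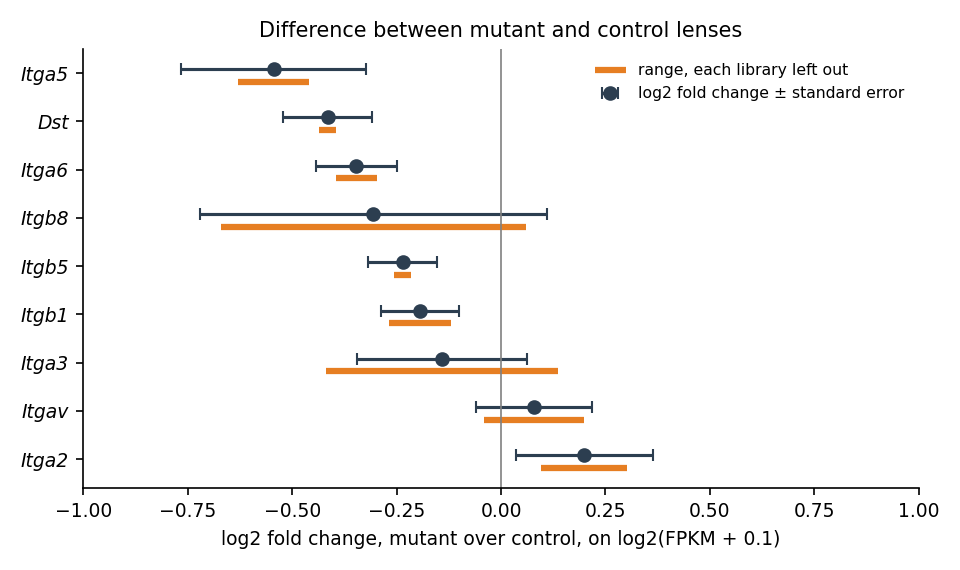
Log2 fold change of mutant over control on log2(FPKM + 0.1) for the 9 genes in the fit, as points with the standard error, and in orange the range when each of the 4 libraries was left out in turn. The orange ranges of *Itga5*, *Dst*, *Itga6*, *Itgb5* and *Itgb1* lie below 0 and that of *Itga2* above it, as must hold where groups do not overlap. Those of *Itgb8*, *Itga3* and *Itgav* cross 0.

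In whole lenses, fewer cells of a type and less RNA per cell cannot be told apart. Summed FPKM of the lens epithelium markers other than *Cryab* was 179 and 222 in mutant and 209 and 210 in control lenses, so the groups overlapped. This sum is mostly *Foxe3* and *Slc7a5*. Of the 6 markers, 4 had a lower fitted level in mutant lenses. Both mutant libraries were below both controls for 1 (*Cdh2*, 11.4 and 13.4 against 15.5 and 14.9 FPKM), against 18.3% of all genes. At an unadjusted p under 0.05, 0 passed by limma and 2 by voom, against 6.31% and 7.43% of all genes. At an adjusted p under 0.05, 0 passed by either. All 6 vascular endothelium markers had a lower fitted level in mutant lenses, with sums of 2.85 and 2.22 FPKM against 3.57 and 3.11 FPKM, and 0 of them passed an adjusted or an unadjusted p of 0.05 by limma or voom. The part of either cell type in the integrin values was not tested.

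The other genes of integrin adhesion were grouped in 6 lists, of which 71 genes passed the filter. By limma, 0 of the 71 were called at an adjusted p under 0.05, and 6 had an unadjusted p under 0.05, against 1009 of all genes (6.31%). By voom on recovered reads, 1 of the 71 was called (*Lama2*), and 14 had an unadjusted p under 0.05, where the share over all genes was 7.43%. The lists were chosen with these results known, and counts of called genes below are by limma.

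Of the 18 further integrin subunit genes, 4 passed the filter and all 4 had lower fitted levels in mutants. None was called (0 of 4), and their log2 fold changes had a median of -0.27. *Itga8* measured 0.145 and 0.291 FPKM in mutant and 0.258 and 0.361 FPKM in control lenses, with a log2 fold change of -0.39 ± 0.40 (SE, limma adjusted p = 0.836) that was -0.05 without mutant replicate 1. *Itga1*, a collagen receptor subunit, had -0.20 ± 0.40 (adjusted p = 0.925) and the platelet subunit gene *Itga2b* -0.22 ± 0.52 (adjusted p = 0.943). All 3 were below 0.4 FPKM.

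Of 10 hemidesmosome and plakin genes, 5 passed the filter, with 3 lower, 2 higher and 0 called. *Ppl*, which encodes the plakin periplakin, measured 11.9 and 13.6 FPKM in mutant and 17.5 and 15.6 FPKM in control lenses. The groups did not overlap, with a log2 fold change of -0.38 ± 0.12 (SE, limma adjusted p = 0.737). The plakin gene *Plec* had -0.18 ± 0.13 (adjusted p = 0.811), from -0.30 to -0.05 with each library left out, and *Cd151*, whose tetraspanin product binds laminin receptors, 0.01 ± 0.13 (adjusted p = 0.992). Genes named after their values were seen were *Macf1*, the closest relative of *Dst*, with -0.17 ± 0.11 (adjusted p = 0.811), and 4 genes under the filter. Of these, *Col17a1*, the hemidesmosomal collagen, had 0 to 5 reads a library, the keratin genes *Krt5* and *Krt14* 0 to 1, and the desmoplakin gene *Dsp* 0 to 3. Together with *Itgb4* at 3 to 8 reads, these 4 genes were at or near 0 in all 4 libraries.

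Genes of integrin activation and tail binding passed the filter in 12 of 15 cases, with 8 lower, 4 higher, 0 called and a median log2 fold change of -0.04. The small GTPase genes *Rap1a* and *Rap1b* had log2 fold changes of 0.00079 ± 0.13 (SE) and -0.05 ± 0.10, and *Itgb1bp1*, whose product binds the β1 tail, 0.11 ± 0.22, with limma adjusted p of 0.999, 0.922 and 0.931. The talin gene *Tln2*, named after its values were seen, measured 1.61 and 2.15 FPKM in mutant and 3.09 and 2.50 FPKM in control lenses. The groups did not overlap, which its naming for an unadjusted limma p under 0.05 nearly fixes. Its log2 fold change was -0.55 ± 0.20 (adjusted p = 0.774), or -0.35 without mutant replicate 1.

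All 21 focal adhesion adaptor and kinase genes passed the filter, with 13 lower, 8 higher, 0 called and a median of -0.08. *Lims1*, which encodes the adaptor PINCH1, measured 18.01 and 16.02 FPKM in mutant and 12.6 and 16.1 FPKM in control lenses, with a log2 fold change of 0.25 ± 0.15 (SE, limma adjusted p = 0.811). Its paralogue *Lims2*, named after its values were seen, measured 1.69 and 0.918 FPKM in mutant and 2.91 and 2.32 FPKM in control lenses, with -1.001 ± 0.30 (adjusted p = 0.737). The groups overlapped for *Lims1* and not for *Lims2*, which was named for an unadjusted limma p under 0.05, so this nearly follows from the choice. Without control replicate 1 the value of *Lims1* was 0.08, and without mutant replicate 2 that of *Lims2* was -0.60. Their partners in one complex, *Ilk* and *Parva*, also named after their values were seen, had 0.34 ± 0.23 and -0.19 ± 0.11 (adjusted p = 0.811 for each), and *Ilk* was at 0.17 without control replicate 1. *Ilk* rests on 22 to 34 reads a library, with a counting standard error of 0.27, and *Parva* on 644 to 812 reads. The adaptor gene *Crk* and the actin crosslinker gene *Actn4* had 0.01 ± 0.09 (adjusted p = 0.992) and 0.02 ± 0.09 (adjusted p = 0.970).

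Of 24 integrin ligand genes of the capsule and matrix, 21 passed the filter, with 17 lower, 4 higher, 0 called by limma and 1 by voom, and a median log2 fold change of -0.16. The type IV collagen gene *Col4a1* measured 182.9 and 232.8 FPKM in mutant and 289.1 and 241.8 FPKM in control lenses, with a log2 fold change of -0.36 ± 0.16 (SE, limma adjusted p = 0.809). *Col4a2* had -0.23 ± 0.18 and the nidogen gene *Nid1* -0.16 ± 0.12 (adjusted p = 0.811 for each). Mutant replicate 1 was the lowest library for all 3, and without it the log2 fold changes were -0.18 for *Col4a1*, -0.05 for *Col4a2* and -0.03 for *Nid1*. Without control replicate 1 they were -0.23, -0.06 and -0.15.

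Named after their values were seen were the laminin chain genes *Lama2* and *Lamc1* and the osteopontin gene *Spp1*. *Lama2* measured 0.784 and 0.751 FPKM in mutant and 1.48 and 1.72 FPKM in control lenses. Its log2 fold change was -0.97 ± 0.16 (SE, limma adjusted p = 0.363, and 0.000885 by voom). The study's own DESeq2 test lists *Lama2* among its called genes, lower in mutant lenses. *Lamc1* measured 4.24 and 5.56 FPKM against 8.09 and 6.29 FPKM, a log2 fold change of -0.54 ± 0.19 (adjusted p = 0.771) that was -0.35 without mutant replicate 1. *Spp1*, an integrin ligand, was read 4 and 18 times in mutant lenses and 0 times in either control (adjusted p = 0.781). The groups did not overlap for any of the 3, but each was named for an unadjusted limma p under 0.05, which nearly fixes this. In the list, both mutant libraries were below both controls for 7 of 21 genes and above them for 3. The shares over all genes tested were 18.3% and 18.2%. Of 8 blood and immune markers, 5 passed the filter, with 3 of these lower and summed FPKM of 26.6 and 18.5 in mutant and 35.6 and 21.9 in control lenses. The 3 lower genes were the haemoglobin genes *Hba-a1*, *Hbb-bs* and *Hbb-bt*, and the sum is mostly haemoglobin. The macrophage markers *C1qa* and *Cd68*, the 2 of the list with an unadjusted limma p under 0.05, were above both controls in both mutant libraries. *C1qa* was at 1.02 and 0.638 against 0.445 and 0.261 FPKM, and *Cd68* at 0.268 and 0.650 against 0.164 and 0.0863 FPKM. Over all genes tested, 18.2% were above both controls in both mutant libraries. *Csf1r*, under the filter, was at 0.0971 and 0.0973 against 0.0713 and 0.0470 FPKM, while *Ptprc* was at or near 0 and *Hba-a2* at 0. The part of blood and immune cells in the *Spp1* value was not tested.

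All 8 genes of tetraspanins and other membrane partners passed the filter, with 1 lower, 7 higher, 0 called and a median of 0.04. *Bsg*, which encodes basigin, *Slc3a2*, which encodes the CD98 heavy chain that binds β subunits, and the tetraspanin gene *Cd81* had log2 fold changes of 0.05 ± 0.09, 0.03 ± 0.09 and 0.02 ± 0.09 (SE), with limma adjusted p of 0.925, 0.960 and 0.966. When libraries were instead scaled to equal totals of recovered reads, 3 of the 8 were lower.

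**Figure D4:**
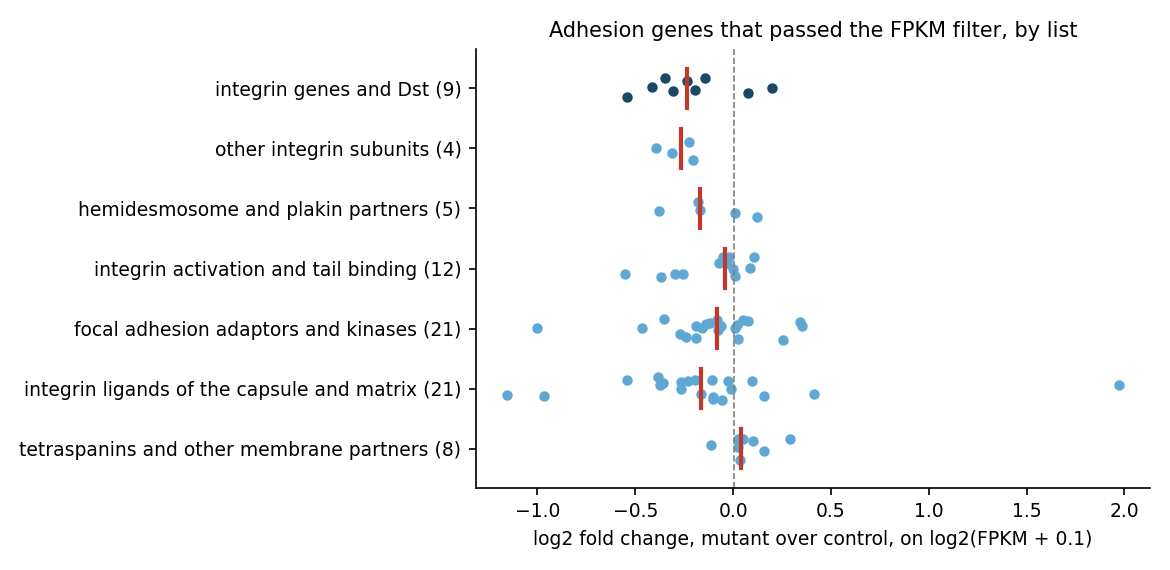
Log2 fold change of mutant over control on log2(FPKM + 0.1) of each gene that passed the filter, by list, with the number of genes in parentheses, the list's median as a red line and the median over all 15997 genes (0.00409) as a dashed line. The medians run from -0.27 for the other integrin subunits to 0.04 for the tetraspanins and other membrane partners.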

How the data were processed

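The starting point was the table of FPKM per gene deposited by the authors, for 56748 genes in 4 libraries. Per the study's methods, the sequencing provider used HISAT2 to align and featureCounts to count reads over genes, without a strand setting given in the sources used here, and tested with DESeq2. The build is mm39 by the submitters' processing notes, and positions are those of the deposited table. The table has 0 unused columns of per-sample values.

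Libraries were scaled by the median of their ratios to the geometric mean of each gene. This median was 1.00588 in every library, so the step changed no library relative to another. The alternative with FPKM as deposited is therefore nearly the same fit. Genes with a mean of at least 0.1 FPKM (15997) were tested on log2(FPKM + 0.1) with limma 3.58.1 (R 4.3.3, lmFit and eBayes with a trend, two-sided, Benjamini-Hochberg adjustment), mutant over control. Whole reads were recovered from the steps between FPKM values (100% whole within 0.1 read) and tested with limma's voom as an alternative. A log2 fold change on this scale understates the difference of genes with low FPKM. The fit was tested on simulated data.

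The 10 genes and the lists were chosen with earlier results of these data known. From each list the text names the 3 genes with the highest mean FPKM and any gene past an adjusted p of 0.05 in the limma fit (0 genes), and states where a gene was named after its values were seen. Of the latter, *Tln2*, *Lims2*, *Lama2*, *Lamc1* and *Spp1* were named for an unadjusted limma p under 0.05. Coding sequences come from GENCODE M21 on GRCm38 and promoters from RefSeq. Alternatives were the pseudocount, the filter, the scaling, a fit without a trend, voom, a replicate block, a covariate for *Xist* and leaving out each library.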

Additional observations from a re-analysis of the deposited data

How the results depend on the processing

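Of the 9 genes in the fit, 6 (*Itgb5*, *Itgb1*, *Itga6*, *Itga5*, *Dst* and *Itga2*) had the same direction in all alternatives run. Their groups did not overlap, so neither leaving out a library nor another pseudocount could turn it. The filter, the trend, the replicate block and the covariate for *Xist* leave a fitted log2 fold change as it is. *Itga3* and *Itgb8* turned without mutant replicate 1, and *Itgav* without mutant replicate 1 and without control replicate 1. The number of genes called at an adjusted p under 0.05, 6 as reported, was 2 with a pseudocount of 1, with one of 0.01, with a mean FPKM of at least 1, without a trend and with the replicate block, 1 without a filter and with a covariate for *Xist*, 14 by voom and 0 with any library left out. Deviations from the group means of libraries with the same replicate number correlated at r = -0.0051 over 15997 genes. This value cannot decide whether libraries were paired, since mutant replicate 2 and control replicate 1 stood apart together across the groups. Genes with an unadjusted p under 0.05 numbered 1009, 617 with a mean FPKM of at least 1, and 787 to 1464 with a library left out. Genes lower in mutant lenses among the other integrin subunits were 4, but 10 without a filter, 0 at a mean FPKM of at least 1 and 3 to 4 with a library left out. They were 5 instead of 3 without a filter for hemidesmosome and plakin genes, 5 instead of 8 at a mean FPKM of at least 1 for activation and tail binding genes, and 3 instead of 1 with equal read totals, or 2 to 4 with a library left out, for membrane partners. With equal read totals, log2 fold changes turned to -0.0184 for *Cd151*, -0.030 for *Rap1a*, -0.0225 for *Crk*, -0.0095 for *Actn4*, -0.0040 for *Slc3a2* and -0.0073 for *Cd81*, where the median of all genes was -0.0237. By voom, *Rap1a* was at -5.4e-05. With each library left out, values ran from -0.616 to 0.166 for *Itga2b*, -0.133 to 0.157 for *Cd151*, -0.104 to 0.106 for *Rap1a*, -0.119 to 0.0140 for *Rap1b*, -0.200 to 0.410 for *Itgb1bp1*, -0.0041 to 0.0208 for *Crk*, -0.0074 to 0.0499 for *Actn4*, -0.0163 to 0.113 for *Bsg*, -0.0186 to 0.0728 for *Slc3a2* and -0.0139 to 0.0610 for *Cd81*. The cause was not tested. Of the 10 genes, *Itgb4*, *Itgb8* and *Itga5* rest on under 70 reads a library at this depth.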
